A study of Mus musculus with 4 samples.

Results

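The nuclear-encoded subunits of the respiratory chain and ATP synthase were taken as 84 of the 15586 genes in the deposited table. The rule used symbols alone and no measured value, though it was set with earlier results of these data known. It took names starting with Ndufa, Ndufb, Ndufc, Ndufs or Ndufv (complex I, 41 genes), Sdha to Sdhd (complex II, 4 genes), Uqcr (complex III, 8 genes), Cox4 to Cox8 (complex IV, 14 genes) and Atp5 (complex V, 17 genes). Assembly factors with Ndufaf names and names marking pseudogenes or clone identifiers were left out. A choice by symbol has limits of its own. Ndufa4 is counted with complex I by its name although the protein is now assigned to complex IV, Cox7a2l is a factor that joins complexes into supercomplexes, and the heme subunit of complex III, Cyc1, does not carry the prefix and is given apart. Ndufb4b and Ndufb4c are near-identical copies of Ndufb4, so how reads were split between them is uncertain.

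Complexes I and II pass electrons from NADH and succinate to coenzyme Q, complex III passes them on to cytochrome c, and complex IV passes them to oxygen. Complexes I, III and IV pump protons across the inner mitochondrial membrane, and complex V uses that gradient to make ATP. A few core subunits carry the flavins, iron-sulfur clusters and catalytic sites, and many small accessory subunits, most of them with short transcripts, surround them. Microglia are the resident immune cells of the retina, and shifts between respiration and glycolysis are a known part of how such cells respond to activation.

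RNA came from microglia sorted on the fluorescent protein EYFP from retinas of 2-month-old mice, with 200 cells in each library and full-length cDNA amplified by PCR. Mice of both groups carried an inducible Cre recombinase at 1 allele of Cx3cr1 and floxed Tak1 alleles. TAK1 is a kinase that acts between cytokine or innate immune receptors and NF-kB. The control group (2 libraries) was given corn oil and the TAK1 knockout group (2 libraries) tamoxifen at 75 mg/kg, both by intraperitoneal injection on 5 consecutive days. The genotype of the knockout samples is labelled Cx3cr1CreER/+;Tak3fl/fl, whereas the treatment protocol gives Cx3cr1CreER/+;Tak1fl/fl, and groups are named here as the titles name them. The Cx3cr1 locus is also active in other myeloid cells, so neither the Cre nor the sort is restricted to microglia. Tamoxifen was given to the knockout group alone, so effects of drug and deletion cannot be told apart. Nothing in the labels says that libraries of a group came from separate animals, so p-values measure only the spread between these libraries, which may be technical.

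Values are FPKM, which scale fragments to transcript length and to the fragments of the library, so levels of different genes can be set side by side. They keep no read counts, and the depth of each library is unknown. FPKM summed to 812009 to 969700 per library, and 4481 and 3777 genes reached 1 FPKM in control 1 and 2, compared with 6055 and 5628 in knockout 1 and 2. Map3k7, the gene for TAK1, read 0.03, 0, 0.02 and 0.08 FPKM (control 1, control 2, knockout 1, knockout 2, the order used for 4 values throughout, and values of controls stand before "against"), so its level checks no label. Each of the 8 microglia and macrophage markers was found, among them P2ry12 at 569 to 1794 FPKM and Aif1 at 1246 to 2389 FPKM, although 1 of the 8 was under 1 FPKM in control 1. They summed to 11253, 13733, 23733 and 18671 FPKM, and 5 lay above and 2 below in both knockouts. Transcripts of other retinal and blood cells were present too, though none passed the adjusted threshold in limma. For 7 of 8 rod photoreceptor genes both knockouts lay above both controls, as they did for 27.8% of all genes tested, and the rod genes summed to 1134 and 1440 FPKM for the controls, compared with 4441 and 4819 in the knockouts. The 4 bipolar cell genes summed to 3.28, 95.8, 649 and 579 FPKM. The 4 monocyte genes summed to 9543 and 15322 FPKM for the controls, compared with 2486 and 1895 in the knockouts. Most of each sum was Lyz2, at 9227, 14880, 2484 and 1894 FPKM. Plac8 (0.13, 173, 0.39 and 0.14) and S100a6 (0, 118, 0.12 and 0.4) were high in control 2 alone, and their groups overlapped. Ccr2, the chemokine receptor that defines inflammatory monocytes, read 316 and 151 against 1.81 and 0.59. Endothelial and red blood cell genes were at or near 0 in every library. The part of these other cells in the values below was not tested. In such bulk samples fewer cells of a type and less RNA per cell cannot be told apart.

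Promoter sequences are shown first because the NRF1 and YY1 motifs were in a larger share of the members than of other genes, and the choice by name did not use them. Nuclear respiratory factor 1 (NRF1), the ETS-family factor GABP and YY1 are known regulators of respiratory genes. The NRF1 consensus, the ETS core CCGGAAG and the YY1 motif AAGATGGCG were searched on both strands in windows from 250 bases before to 50 bases after each RefSeq gene start (GRCm38.p6). Windows were found for 68 of the 84 members, and no matches of different motifs overlapped. The NRF1 motif was in a window of 17 of these 68 genes (25%), against 9.37% of the deposited table's genes with a window and 14.8% of those with a mean of 100 FPKM or more. The YY1 motif was in 7 (10.3%), against 2.88% and 4.55%. The ETS motif was in 17 (25%), against 16.7% and 25.5%, close to other genes at that level. Over all 32851 windows of the table the motifs were in 4.6% (NRF1), 8.86% (ETS) and 1.40% (YY1), whereas over the members' 73 windows they were in 24.7%, 23.3% and 9.59%. By complex, complex V had the NRF1 motif in 6 of 15 genes and the ETS motif in 6 of 15, and complex IV in 1 of 10 and 3 of 10. The 3 stretches below, the 250 bases before the RefSeq gene start, were chosen because they hold the most matches, 3 each. They are written 5′ to 3′ on the minus strand, with matches to the motifs in capitals, so that the capitals starting with GCGCA are the NRF1 matches. They lie at chr16:37654369-37654618 (Ndufb4), chr13:74350241-74350490 (Sdha) and chr5:115348959-115349208 (Cox6a1), upstream of the RefSeq genes, although the longest GENCODE M21 transcript of each starts inside the stretch.
Ndufb4: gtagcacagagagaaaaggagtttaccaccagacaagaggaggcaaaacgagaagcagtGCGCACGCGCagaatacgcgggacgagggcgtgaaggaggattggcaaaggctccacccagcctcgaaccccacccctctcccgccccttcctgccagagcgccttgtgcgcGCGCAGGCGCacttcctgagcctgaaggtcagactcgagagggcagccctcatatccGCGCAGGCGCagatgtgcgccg
Sdha: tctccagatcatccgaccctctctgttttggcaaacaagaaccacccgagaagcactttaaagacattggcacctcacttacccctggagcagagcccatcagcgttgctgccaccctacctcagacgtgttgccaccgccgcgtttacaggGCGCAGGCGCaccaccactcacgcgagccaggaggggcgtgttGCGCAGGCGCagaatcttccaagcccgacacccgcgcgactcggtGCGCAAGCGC
Cox6a1: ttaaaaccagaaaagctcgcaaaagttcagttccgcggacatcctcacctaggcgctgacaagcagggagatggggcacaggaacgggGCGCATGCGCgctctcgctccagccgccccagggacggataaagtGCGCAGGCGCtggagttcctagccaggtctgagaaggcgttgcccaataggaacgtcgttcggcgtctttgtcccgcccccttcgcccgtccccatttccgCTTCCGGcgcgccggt
Ndufb4, with 3 NRF1 matches, encodes a membrane-arm accessory subunit of complex I. Sdha, also with 3, encodes the flavoprotein of complex II. Cox6a1 has 2 NRF1 matches and an ETS match, the latter on the opposite strand, and encodes the widely expressed form of a small complex IV subunit. Among members with a window, the 17 with an NRF1 match had a median difference between knockout and control of 0.15 on the log2 scale, and the 51 without had -0.32. Split by a match to any of the 3 motifs, the medians were -0.10 with (35 genes) and -0.17 without (33 genes). These medians are a description, with no test.

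The subunits were among the most abundant transcripts of the sorted cells in all 4 libraries. Their median lay at the 97.7th to 98.4th percentile of the 15586 genes within each library. Of the 83 members with a mean of at least 1 FPKM, 56 (67.5%) reached 100 FPKM in every library, against 7.94% of all 7823 genes tested. Only Ndufs6b, listed at 0, 0, 0.52 and 0 FPKM, was too low to be tested. Together the members made up 7.09% and 6.60% of the summed FPKM in control 1 and 2 and 5.38% and 7.82% in knockout 1 and 2. The knockouts thus held both the lowest and the highest share. Members were also steadier between libraries than genes at large, and short, abundant transcripts were too. All 4 libraries lay within 2-fold of each other for 23 of 83 members (27.7%), against 3.80% of all genes and 18.6% of those with a mean of 100 FPKM or more. Among genes at that level with transcripts under 1000 bases the share was 25.1%. Of the 65 members at that level, 35.4% stayed within 2-fold. Of the 54 members with transcripts under 1000 bases 35.2% did, against 13.6% of all short genes tested. Members both short and at that level were not counted apart, so the 25.1% has no matched share among members. Across the 83 members the log2 values of any pair of libraries correlated at r = 0.77 to 0.85, against 0.51 to 0.59 over all 7823 genes tested. Over the 1177 genes with a mean of 100 FPKM or more, a narrower range of levels, r was 0.40 to 0.60. The genes of a pair share each library's depth and amplification, so these r values describe the libraries only. The highest r was between control 1 and knockout 2, and the lowest between the controls.

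**Figure D1:**
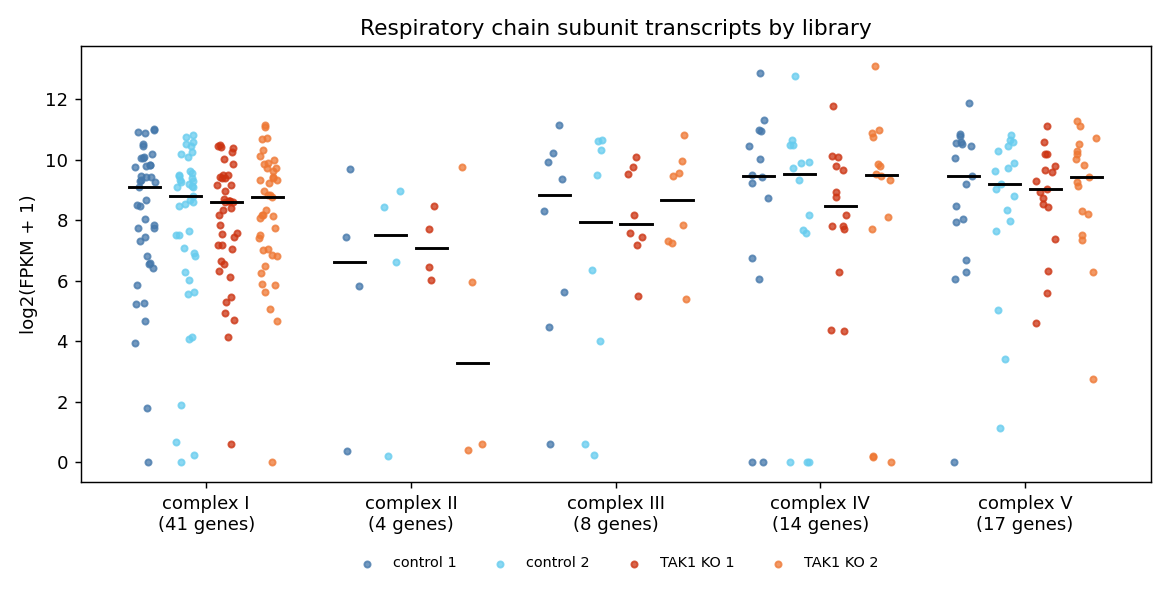
Level of every member, log2(FPKM + 1) on the vertical axis, by complex and library; each point is a gene and black lines are medians. Medians of the 4 libraries lie close together in complexes I and V, and complex IV has its lowest median in knockout 1 (363 FPKM against 705, 752 and 726).

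**Figure D2:**
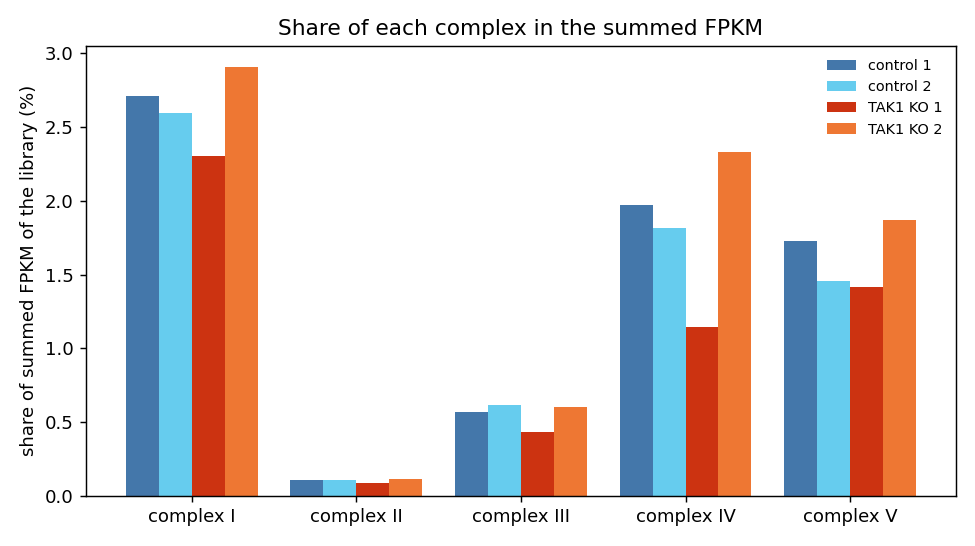
Share of the library's summed FPKM (vertical axis, percent) held by each complex, 1 bar per library. Complex IV reaches 1.14% in knockout 1 and 1.82% to 2.33% in the others, and complex II stays at or below 0.115% throughout.

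The comparison of knockout with control asked whether expression of the chain differs when TAK1 is deleted. No member differed between the groups at an adjusted p under 0.05 (limma's moderated test on log2(FPKM + 1), Benjamini-Hochberg over all genes), and neither did any of the 7823 genes (0%). The smallest adjusted p of a member in limma was 0.559, for Uqcrc1. At an unadjusted p under 0.05 limma gave 1 member higher (Uqcrc1, against 6.07% of all genes) and 1 lower (Ndufa5, against 1.62%). The median difference, knockout minus control, was -0.10 over the 83 members (quartiles -0.49 and 0.45) and 0.94 over all genes. Genes with a mean of 100 FPKM or more had a median of -0.11 and the 65 members at that level had -0.17. Under quantile normalization the medians of members and of all genes were both 0.12. Both knockouts lay above both controls for 13 members (15.7%, background 27.8%) and below for 19 (22.9%, background 11.4%), and in either direction 39.2% of all genes met this rule. The 13 include Cox4i2 (0, 0, 78.2 and 0.13 FPKM), which met the filter on low values only through knockout 1. Its direction supports nothing. Among genes with a mean of 100 FPKM or more the counts were 7 and 17 of 65 members (10.8% and 26.2%), against 19.0% and 26.5% of all such genes. The balance turned with scaling: rescaled to the same sum, 18 members lay above (background 31.2%) and 13 below (9.69%), by median ratio scaling 14 (30.2%) and 16 (10.8%), and under quantile normalization 17 (18.3%) and 10 (19.9%). With 2 libraries a group, an exact two-sided permutation test of 1 gene cannot go below p = 0.333.

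**Figure D3:**
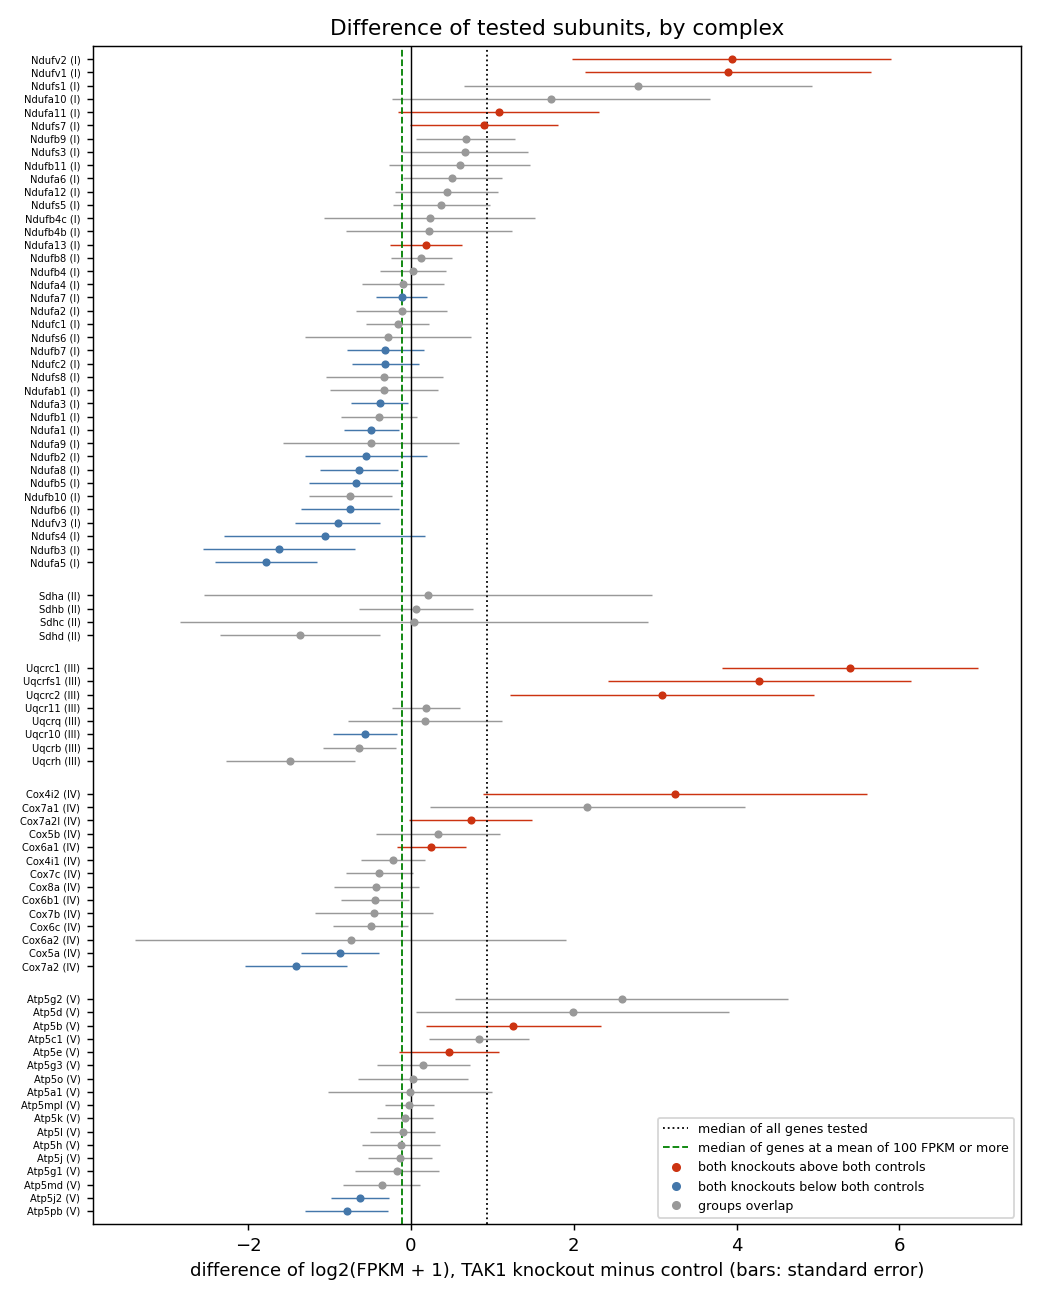
Difference of tested members between knockout and control on the log2(FPKM + 1) scale (horizontal axis), by complex, with standard errors from limma as bars; colours mark groups that do not overlap. Many members lie near the dashed median of genes at 100 FPKM or more (-0.11), and Uqcrc1 (5.39), Uqcrfs1 (4.28), Ndufv2 (3.94) and Ndufv1 (3.89) lie farthest to the right.

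Within complex I the medians of the core catalytic and the accessory subunits stood on opposite sides of 0, though not every gene followed. The 7 core subunits had a median difference of 0.89, with 5 differences above 0 and 2 below it. Of these 7, 3 lay above and 1 below in both knockouts. The 33 tested accessory subunits had a median of -0.28, with 12 differences above 0 and 21 below it. Of these 33, 2 lay above and 13 below in both knockouts (6.06% and 39.4%). Over all genes 27.8% lay above and 11.4% below, and over genes with a mean of 100 FPKM or more 19.0% and 26.5%. Ndufv1 (chromosome 19, 4007499 to 4012755), which binds NADH and the flavin, read 14.4, 0.18, 68.3 and 57.0 FPKM. Its partner Ndufv2, an iron-sulfur protein (chromosome 17, 66078795 to 66101559), read 231, 2.72, 722 and 279 FPKM. Both knockouts were above both controls for this pair, and control 2 was far below the rest. The differences were 3.89 ± 1.75 for Ndufv1 (SE, limma adjusted p = 0.689) and 3.94 ± 1.96 for Ndufv2 (adjusted p = 0.698). Without control 2 the differences were 2.04 for Ndufv1 and 0.96 for Ndufv2. Ndufs1, the largest iron-sulfur subunit, read 111, 0.58, 93.1 and 89.2 FPKM. Its groups overlapped, and its difference of 2.79 turned to -0.28 without control 2. Ndufs3, Ndufs7 and Ndufs8, which belong to the path of electrons towards the coenzyme Q site, had no common direction. Ndufs7 read 57.1 and 119 FPKM against 131 and 181, and Ndufs3 read 212, 113, 186 and 324. Ndufs8 read 409, 199, 189 and 272. Ndufs7 lay above in both knockouts, and the groups overlapped for Ndufs3 and Ndufs8. The differences of these 3 lay within -0.33 to 0.89 on the log2 scale.

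Among the accessory subunits of complex I, Ndufa5 (chromosome 6, 24518662 to 24527690), part of the arm that reaches into the matrix, had the smallest limma p. It read 1077 and 637 FPKM (controls) against 343 and 168 (knockouts), or 857 ± 311 against 256 ± 123 (SD, n = 2). The knockouts lay below the controls with no overlap, 3.35-fold lower in the means, with a difference of -1.78 ± 0.63 (SE, limma adjusted p = 0.582). Ndufb3, a membrane-arm subunit, read 159 and 671 FPKM against 99.5 and 112, and its difference was -1.62 ± 0.93 (limma adjusted p = 0.698). Control 2 was far above the other 3 libraries, and without it the difference was -0.58. Ndufv3, an accessory subunit beside the NADH site, read 626 and 622 FPKM against 385 and 289. The controls agreed closely there and the knockouts were both lower, though limma's adjusted p was 0.698. Of the most abundant subunits, Ndufa1 read 2018 and 1536 FPKM against 1421 and 1107, a step with no overlap. Ndufc1 read 1902, 1826, 1213 and 2288 FPKM, Ndufb4 2075, 1104, 1380.5 and 1709, and Ndufa4 1945, 1184, 940.1 and 2149. For Ndufc1 and Ndufa4 the knockouts lay on either side of both controls, and for Ndufb4 both knockouts lay between the controls. Ndufa7 shows how small a step can meet the no-overlap rule: its libraries read 1462, 1481, 1450 and 1276 FPKM. The 2 accessory subunits above in both knockouts were Ndufa13, at 642 and 555 FPKM against 678 and 678, and Ndufa11, at 24.3 and 16.7 against 38.7 and 49.1. By family, both knockouts were below the controls for 5 of 13 Ndufb genes (38.5%) and above for 0. Of genes at 100 FPKM or more 26.5% lay below and 19.0% above. Of those with transcripts under 1000 bases 31.7% lay below and 12.3% above. Under each of the 3 other scalings, 3 or 4 Ndufb genes lay below and 1 above. Of the 33 accessory subunits the count below was 8 when libraries were rescaled to the same sum and 7 under quantile normalization, so it depends on scaling.

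In complex II no gene separated the groups, and libraries of the same group went opposite ways. Sdha, the flavoprotein that oxidizes succinate, read 55.6, 0.16, 64.05 and 0.34 FPKM. Sdhc, a membrane anchor, read 0.31, 98.1, 87.7 and 0.54. Each of these genes was thus near 0 in 1 library of each group. Sdhb, the iron-sulfur subunit, read 833, 344, 359 and 869 FPKM, and Sdhd, the other anchor, 174, 499, 210.4 and 61.4. For all 4 genes the groups overlapped. The median difference was 0.05 and ran from -2.42 without knockout 1 to 1.24 without knockout 2.

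In complex III the core proteins and the small subunits stood apart. Uqcrc1 (chromosome 9, 108936648 to 108949641), a core protein of the matrix side, read 0.54 and 15.3 FPKM against 286 and 153. The difference was 5.39 ± 1.58 (SE, limma adjusted p = 0.559), and it was 3.69 to 7.09 with any 1 library left out. Uqcrfs1, the Rieske iron-sulfur protein (chromosome 13, 30540312 to 30545316), read 48.3 and 0.51 FPKM against 175 and 159. Uqcrc2, the other core protein, read 21.4 and 0.19 against 44.4 and 41.2. All 3 lay above the controls in both knockouts, under each of the 3 other scalings too. In each of them 1 control was under 1 FPKM, control 1 for Uqcrc1 and control 2 for the other 2. Without control 2 the differences were 1.77 for Uqcrfs1 and 0.97 for Uqcrc2. None of the 5 small subunits lay above in both knockouts and 1 lay below, against 19.0% and 26.5% of genes with a mean of 100 FPKM or more. Uqcrb read 2293, 1629, 861 and 1801 FPKM, Uqcr11 1191, 718, 1098 and 1007, and Uqcrq 318, 82.0, 144 and 232, all with overlapping groups. Uqcrh, the hinge protein that meets cytochrome c, read 659 and 1587 against 189 and 707. Uqcr10 was the only small subunit below in both knockouts, at 968 and 1281 against 738 and 766 FPKM. The median of the small subunits was -0.57, beside 4.28 for the core proteins and the Rieske protein. The heme subunit Cyc1, outside the set by name, read 0.29 and 0.37 FPKM against 18.6 and 37.1. Cyc1 met the filter on low values only through the knockouts, so its direction supports nothing about the core proteins. Its difference was 4.36 (limma adjusted p = 0.599). Its electron acceptor cytochrome c (Cycs) read 498, 227, 204 and 309 FPKM, with overlapping groups.

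**Figure D4:**
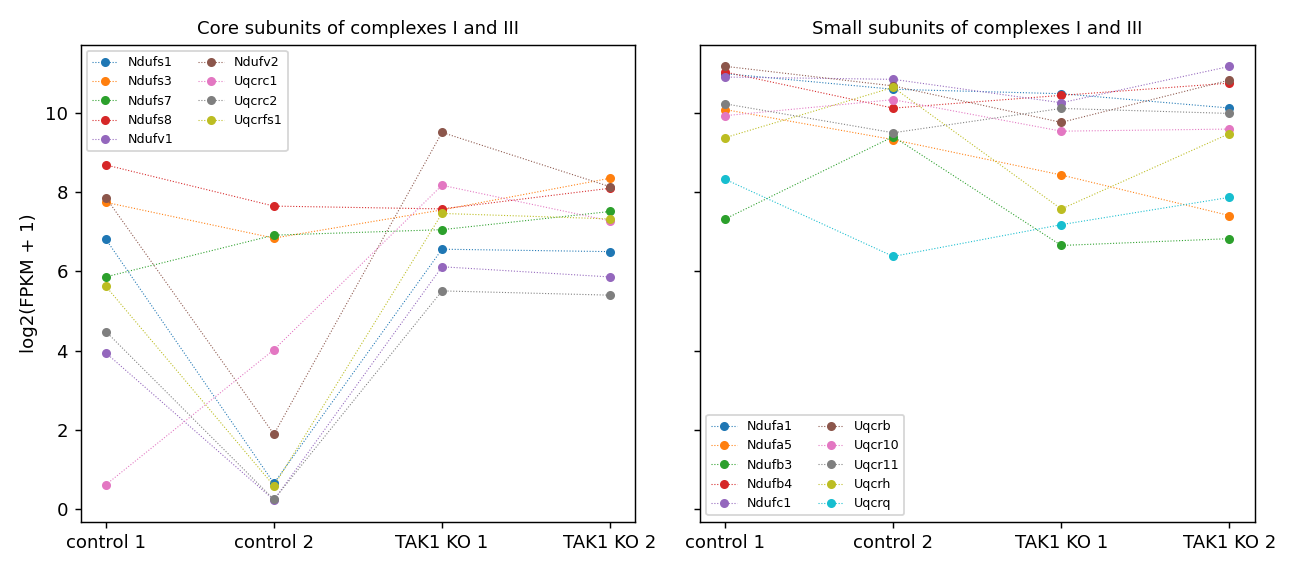
log2(FPKM + 1) (vertical axis) of named core and small subunits in each of the 4 libraries; dotted lines only join the values of 1 gene, and libraries have no order. Some core subunits read near 0 in a control (Ndufs1 0.58 FPKM and Uqcrc2 0.19 in control 2, Uqcrc1 0.54 in control 1), and none of the small subunits drawn does.

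Knockout 1 had the lowest summed FPKM of the 4 libraries in every complex, so its low reading was not particular to complex IV. The genes of complex III, for example, summed to 5499, 5312, 3535 and 4866 FPKM. The 14 genes of complex IV summed to 19118, 15683, 9416 and 18923 FPKM. Knockout 1 was the lowest library for 7 of the 10 common subunits, against 30.0% of all genes at 100 FPKM or more, and knockout 2 for 0 of the 10. Cox7c (chromosome 13, 86044798 to 86046795), the most abundant member of the set, read 7500.1 and 7067 FPKM against 3498 and 8844. Knockout 2 was the highest library and knockout 1 the lowest, so the groups overlapped. The difference was -0.39 ± 0.42 (SE, limma adjusted p = 0.698), and 0.28 without knockout 1. Cox6b1 read 2533, 1624, 1101 and 2024 FPKM, Cox6c 1970.3, 1435, 816 and 1747, and Cox4i1 2040, 1444, 1128 and 1911. These 3 repeated the low reading of knockout 1. Cox7a2 read 1050.1 and 973 FPKM against 223 and 647, the largest step down in the complex. Its difference was -1.41 ± 0.63 (SE, limma adjusted p = 0.681) with all libraries and -0.64 without knockout 1. Cox5a, at 1411 and 857 against 488 and 744 FPKM, was the other common subunit below in both knockouts. Cox6a1 alone of the common subunits lay above in both knockouts, at 685 and 646 against 886 and 707 FPKM. Cox7b read 431, 192, 208 and 211, and Cox5b 597, 287, 291 and 936.

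Several complex IV subunits have tissue isoforms, and transcripts of the widely expressed form led in each pair. Cox4i2, the form known from lung and low oxygen, was listed at 0, 0, 78.2 and 0.13 FPKM. Cox7a1, a heart and muscle form, read 0, 0, 19.1 and 0, and Cox6a2, another muscle form, 66.5, 0, 20.01 and 0.15. Each of these was above 1 FPKM in only 1 or 2 libraries, and their partners Cox4i1, Cox7a2 and Cox6a1 read at least 223 FPKM in every library. Cox8a, the common form of its subunit, read 726, 955, 436 and 879. Cox7a2l, the supercomplex factor, read 108 and 203 FPKM against 223 and 273, a difference of 0.73 with no overlap (limma adjusted p = 0.698) and of 0.28 to 1.18 with any 1 library left out. When knockout 2 was left out, 3 members passed the adjusted threshold in limma, against 18.5% of the 7068 genes then tested. They were Cox7c (-1.06, limma adjusted p = 0.0453), Cox7a1 and Cox4i2. The last 2 met the filter on low values only through knockout 1, which is the whole knockout arm of that fit, so their calls support nothing. That fit assumes that the lone knockout 1 varies as the controls do. Knockout 2 did not share these differences: it was above both controls for Cox7c and at or near 0 for the others.

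Complex V included the steadiest member of the set. Atp5mpl (chromosome 12, 111961374 to 111967009), a small membrane subunit, read 1515, 1542, 1539 and 1475 FPKM, so that its highest library was 1.04 times its lowest. The other membrane subunits spread more. Atp5k read 1544, 1422, 1162 and 1701 FPKM, and Atp5l 1846, 1625, 1171 and 2218. Atp5j2 read 1403 and 1241 against 806 and 906, below in both knockouts with a difference of -0.63. In the peripheral stalk, which holds the catalytic head still, Atp5j read 3748, 1791, 2227 and 2491 FPKM. Atp5pb of the same stalk read 710.4 and 959 against 369 and 617, a difference of -0.79 (-1.16 to -0.42 with any 1 library left out). Of the 5 genes of the catalytic head and central stalk, 2 lay above and 0 below in both knockouts, against 27.8% and 11.4% of all genes tested. Atp5b, the catalytic beta subunit, read 77.3 and 31.7 FPKM against 79.4 and 181, with a difference of 1.26 ± 1.07 (SE, limma adjusted p = 0.698), or 0.63 to 1.89 with any 1 library left out. Atp5e, the epsilon subunit of the central stalk, read 262 and 251 against 428 and 293. Both lay above in both knockouts, with knockout 1 barely above control 1 for Atp5b. Atp5a1 (alpha) read 65.5, 198, 166 and 77.4 FPKM, Atp5c1 (gamma) 589, 326, 529 and 1163, and Atp5d (delta) 0, 9.65, 23.6 and 5.78. In these 3 the groups overlapped. The c subunit of the rotating ring is made from 3 genes that encode the same mature protein. Atp5g1 read 1063, 519.8, 635 and 687 FPKM, Atp5g3 357, 446, 349 and 565, and Atp5g2 101.2, 1.18, 47.9 and 164, so Atp5g1 led in all 4 libraries. The median difference was 0.84 for the head and central stalk, 0.15 for the ring, -0.13 for the peripheral stalk and -0.10 for the membrane subunits. Over all genes tested the median was 0.94, and over those with a mean of 100 FPKM or more -0.11.

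Members on either side differed in level and in transcript length. The 13 members above in both knockouts had a median level of 114 FPKM, and the 19 below had 664 FPKM. In 5 of the 13 a control was under 1 FPKM. These include Cox4i2, which met the filter on low values only through knockout 1. Among members with a median transcript length of 1000 bases or more (26 genes, GENCODE M21), 8 lay above and 4 below (30.8% and 15.4%), and 7 were under 1 FPKM in some library. All genes tested of that length had 28.8% above and 10.2% below, and those with a mean of 100 FPKM or more had 23.0% and 23.6%. Among the 54 shorter ones, 5 lay above and 15 below (9.26% and 27.8%), and 4 were under 1 FPKM in some library. All short genes tested had 20.1% above and 19.9% below, and those with a mean of 100 FPKM or more had 12.3% and 31.7%. The difference correlated with log2 length at r = 0.29 over the 80 members with a length, and at -0.015 over 7701 genes. Members were near 0 less often than genes at large, as a count: 11 of 83 (13.3%) were under 1 FPKM in some library, against 73.6% of all genes. By library, 5 and 8 members were under 1 FPKM in control 1 and 2, and 0 and 5 in knockout 1 and 2.

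**Figure D5:**
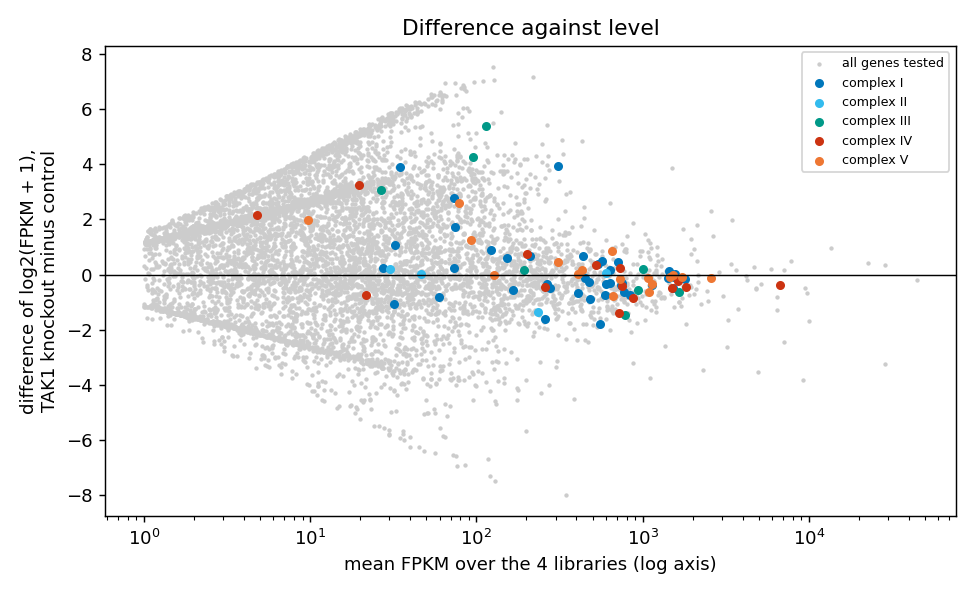
Difference between knockout and control on the log2(FPKM + 1) scale (vertical axis) against mean FPKM over the 4 libraries (log axis), for all genes tested (grey) and members by complex (colours). Members at 100 FPKM or more gather near 0 (median -0.17), and members with a mean of 20 to 100 FPKM lie higher (median 1.08, 15 genes, against 0.78 for all genes at that level).

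The other genes of mitochondrial respiration, from lists made with results of these data known, were compared in the same fit. None passed the adjusted threshold in limma, and the counts below stand beside 27.8% of all genes above and 11.4% below in both knockouts. Assembly factors of complex I had both knockouts above for 2 and below for 2 of 13 tested, and those of complex IV above for 8 and below for 2 of 17. For complex II factors the counts were 0 and 0 of 4, for complex III 1 and 0 of 4, and for ATP synthase 2 and 0 of 5. The tricarboxylic acid cycle and pyruvate dehydrogenase, which feed electrons to the chain, had 8 above and 3 below of 16 tested, with a median difference of 2.38. Of its 3 most abundant genes, Sucla2 read 419.7 and 723 FPKM against 226 and 207, Idh3g 0.64 and 260 against 466 and 265, and Mdh2 41.4 and 84.9 against 401 and 205. Sucla2 thus stood below and the other 2 above in both knockouts. Coenzyme Q synthesis had 2 above and 0 below of 6 tested, and carriers and porins 3 and 0 of 6. Protein import and the inner membrane scaffold had 7 above and 5 below of 24 (29.2% and 20.8%), with a median of -0.08. Some genes counted above were under 1 FPKM in both controls and met the filter on low values only through the knockouts. Among assembly factors these were Nubpl, Ndufaf6, Ttc19, Coa5, Cox15, Coa7 and Atpaf2. In the other lists they were Pdhb, Pdha1, Coq10a, Pdss2, Immt, Timm10, Timm44 and Chchd6. Timm17b, counted below, was under 1 FPKM in both knockouts. The directions of these genes support nothing about their lists. Of 12 regulators of mitochondrial biogenesis only 4 reached a mean of 1 FPKM. The subunits encoded by mitochondrial DNA were not analysed here.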

How the data were processed

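RNA-seq of 4 libraries of sorted retinal microglia was used, 2 control and 2 TAK1 knockout, grouped by their titles. The table deposited by the authors gives FPKM to 2 decimals for each gene in each library. Per the submitters' processing notes, reads were placed on mm10. Which aligner, quantifier or annotation was used is not given in the sources used here. Depth per library is unknown, without molecular identifiers PCR copies count as fragments, and the table holds 0 unused sample columns.

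FPKM were put on the scale log2(FPKM + 1), and the 7823 genes averaging 1 FPKM or more were kept. The difference on this scale understates the change of low genes. Groups were compared with limma 3.58.1 in R 4.3.3 (two-sided moderated test with 2 residual degrees of freedom, 3.99 prior ones and a trended variance), with Benjamini-Hochberg adjustment over all genes and a threshold of 0.05. The code was tested on simulated data. Coordinates and promoter windows are from RefSeq GRCm38.p6, the same assembly as mm10, and all 84 members were found there. Transcript lengths are medians over GENCODE M21 protein-coding transcripts. Scripts used Python 3.11.15, pandas 2.3.3 and matplotlib 3.10.9.

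The members and lists were chosen with earlier results of these data known. Members named by rule were the 4 most abundant of each complex, up to 2 in each direction with the largest difference and no overlap, the complex II genes, isoform pairs and Cox7c. Roles and the other members named were chosen after their values were seen. Alternatives were other pseudocounts, filters, scalings, variance priors, the replicate number as a block and each library left out. Genes marking other cell types were summed per library. Some genes are not reported here.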

Additional observations from a re-analysis of the deposited data

How the results depend on the processing

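The precision is limited by 2 libraries a group and by values near 0 in single libraries; depth is unknown. No member passed an adjusted p under 0.05 under any other pseudocount, filter, scaling or variance prior.

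The replicate numbers share only a number: deviations of same-numbered libraries correlated at r = 0.017 over 7823 genes. With the replicate block 15 genes were higher and 20 lower, none of them a member. Under quantile normalization 2 genes were higher and 3 lower. Leaving out 1 library gave 0 to 1306 genes higher (697 without knockout 1, 1306 without knockout 2), 0 to 5 lower, and 0 to 3 members called.

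The median of complex I was -0.30 at a mean of at least 100 FPKM, 0.024 rescaled to the same sum and 0.019 under quantile normalization, and -0.29 to 0.18 with a library left out. Complex II ran from -2.42 to 1.24 and complex III from -0.27 to 0.85. Complexes IV (-0.41) and V (-0.020) moved by less than the spread between replicates but turned sign: with a library left out IV ran from -0.56 to 0.075 and V from -0.20 to 0.19, and V was 0.14 rescaled to the same sum, 0.057 by median ratio scaling and 0.18 under quantile normalization. Counts of members with no overlap, alternatives chosen after seeing the data, were 10 below under quantile normalization, and 16 to 33 above and 22 to 39 below with a library left out. The cause was not tested.

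Of 70 genes named, 27 turned sign in some fit, 26 of them on leaving out a library and 12 under another scaling. Under quantile normalization Atp5g1 was 0.13, Atp5j 0.14, Atp5k 0.17, Atp5l 0.14, Atp5mpl 0.25, Cox4i1 0.024, Ndufa4 0.16, Ndufc1 0.041, Ndufa7 0.21, Sdha -0.62 and Sdhc -0.57. Rescaled to the same sum, Atp5j was 0.025, Atp5k 0.086, Atp5l 0.059, Atp5mpl 0.14, Ndufa4 0.068, Ndufc1 0.00069, Atp5a1 0.15 and Ndufa7 0.049. By median ratio scaling Atp5k was 0.0012, Atp5mpl 0.057 and Atp5a1 0.069. At a pseudocount of 5 FPKM Sdhc was -0.047.

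With a library left out, the sign turned for Atp5g1 (-0.69 to 0.34), Atp5g2 (-0.19 to 5.36), Atp5g3 (-0.20 to 0.50), Atp5j (-0.67 to 0.40), Atp5k (-0.35 to 0.20), Atp5l (-0.56 to 0.36), Atp5mpl (-0.051 to 0.010), Atp5a1 (-0.80 to 0.78), Cox4i1 (-0.61 to 0.15), Cox5b (-0.51 to 1.18), Cox6a2 (-3.78 to 2.30), Cox6c (-1.04 to 0.055), Cox7b (-1.04 to 0.13), Cox7c (-1.06 to 0.28) and Cox8a (-0.93 to 0.078). It also turned for Ndufa4 (-0.69 to 0.50), Ndufb4 (-0.43 to 0.48), Ndufc1 (-0.62 to 0.30), Ndufs1 (-0.28 to 5.87), Ndufs8 (-0.85 to 0.19), Sdha (-2.60 to 3.01), Sdhb (-0.58 to 0.70), Sdhc (-3.08 to 3.16), Uqcr11 (-0.18 to 0.55), Uqcrq (-0.80 to 1.14) and Cycs (-0.99 to 0.15).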
